A study of Mus musculus with 4 samples.

Results

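The nuclear pore complex genes examined here are 32 listed mouse genes that encode nucleoporins and their close partners, among them Nup214, the gene that carries a floxed allele in this study. A gene's peaks were those overlapping its annotated body extended by 1 kb on each side, in each of 4 lists of Sub1 CUT&Tag peaks. All 32 genes were found in the RefSeq annotation of GRCm38.p6 (mm10), among 21887 protein-coding genes on the assembled chromosomes. CUT&Tag cuts and tags DNA beside an antibody's target, here Sub1 by the labels, a DNA-binding cofactor of transcription. Peak names in every list begin with H4-Cut, a prefix no label explains, so the target rests on the labels alone.

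The samples were hematopoietic stem cells (HSCs) and leukemia stem cells (LSCs) sorted from mouse bone marrow, with 2 libraries of each. HSCs were the CD48- and CD150+ part of the LSK fraction (lineage-negative, Sca-1+, c-Kit+) of Nup214fl/+ mice. LSCs came from Nup214fl/+ mice with leukemia driven by MLL-AF9, a fusion oncogene, and were c-Kit+, CD34+ and CD16/32+ cells that lacked Sca-1 and lineage markers. Groups follow the sample titles, since the labelled cell type is the same in all 4 libraries. Every donor therefore carried 1 floxed Nup214 allele beside a wild-type one. No Cre is named in the labels used here, so no library stands for loss of Nup214, and the lists give Sub1 at these genes, not their RNA or protein. Since normal and leukemic cells were also sorted by different gates, disease and gate cannot be told apart. Whether different mice gave the libraries of a group is not given in the sources used here, so p-values measure only the spread between libraries, which may be technical.

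The nuclear pore complex is a large ring of proteins set in the nuclear envelope, through which RNA and protein pass between nucleus and cytoplasm. The Y complex forms its outer rings, the inner ring and central channel line the passage, and membrane nucleoporins anchor it. Filaments on the cytoplasmic face, where Nup214 sits, release exported cargo, and the nuclear basket faces the chromatin. Several pore genes are known in blood cancers, since NUP98 and NUP214 take part in fusion genes of human leukemia.

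The lists of HSC 1, HSC 2, LSC 1 and LSC 2 held 115881, 235680, 41097 and 34185 peaks. Read totals are not given in the sources used here, and the authors' fold of a peak over its background is comparable only within a list. Comparisons between libraries therefore also used lists of equal size, the 34185 peaks of lowest p-value in each library, in which a peak's rank (1 is the strongest) can be set beside that in another library. Marker genes were counted in the deposited lists alone, which differ in length. Of the genes of the sorting markers, Ly6a (Sca-1) had 4 peaks in each HSC list against 0 in each LSC list. Slamf1 (CD150) had 1 and 7 against 0 and 0. Among all protein-coding genes, 7.71% had a peak in both deposited HSC lists and neither LSC list, and 0.489% did at equal size. Kit, Fcgr3 and Cd34 had peaks in all 4 lists. Cd48, whose product is absent from the HSC gate, also had peaks in all 4 lists, with 4 and 6 in HSCs and 1 and 2 in LSCs, so a peak does not show that a gene's product is present. The neutrophil gene Ly6g had 3 and 3 peaks in HSCs and 0 and 0 in LSCs, the B cell gene Ms4a1 3 and 4 against 1 and 1, and the T cell gene Cd3e 0 and 3 against 0 and 0. Itgam (CD11b) had peaks in all 4 lists. The part of gated-out cells in the values below was not tested.

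All 32 nuclear pore genes carried Sub1 peaks in both cell types. Each had at least 1 peak in its window in every list, and each had a start peak, one within 1 kb of an annotated start site, in every list. Over all protein-coding genes, the share with a peak was 68.9% (HSC 1), 82.4% (HSC 2), 61.8% (LSC 1) and 57.3% (LSC 2), and 55.4% were occupied in every library. A start peak was present at 55.9% (HSC 1), 64.1% (HSC 2), 54.3% (LSC 1) and 51.9% (LSC 2), and at 48.6% in every list. For Nup35, Nup43, Nup85 and Seh1l, which have no start site in the table used, a peak near either gene end was counted as a start peak. In lists of equal size all 32 genes still had a peak in every list (49.3% of all genes), and 31 had a start peak in every list (44.3%). The exception was Nup160 in HSC 1. No nuclear pore gene was therefore found in 1 cell type alone. Among all genes, both HSC lists and neither LSC list had a peak at 7.71% as deposited and 0.489% at equal size. The reverse was seen at 0.0959% and 2.59%.

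The genes' strongest peaks lay somewhat higher in the order of peaks than those of the median occupied gene. At equal list size, the median rank of a member's strongest peak was 3964 (HSC 1), 4077 (HSC 2), 3416 (LSC 1) and 3756 (LSC 2). For the 10788 protein-coding genes with a peak in all 4 of these lists the medians were 4542, 4572, 4442 and 4307, in the same order. The members covered a wide range, from rank 116 for Nup188 in LSC 1 to 14475 for Nup93 in HSC 1.

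**Figure D1:**
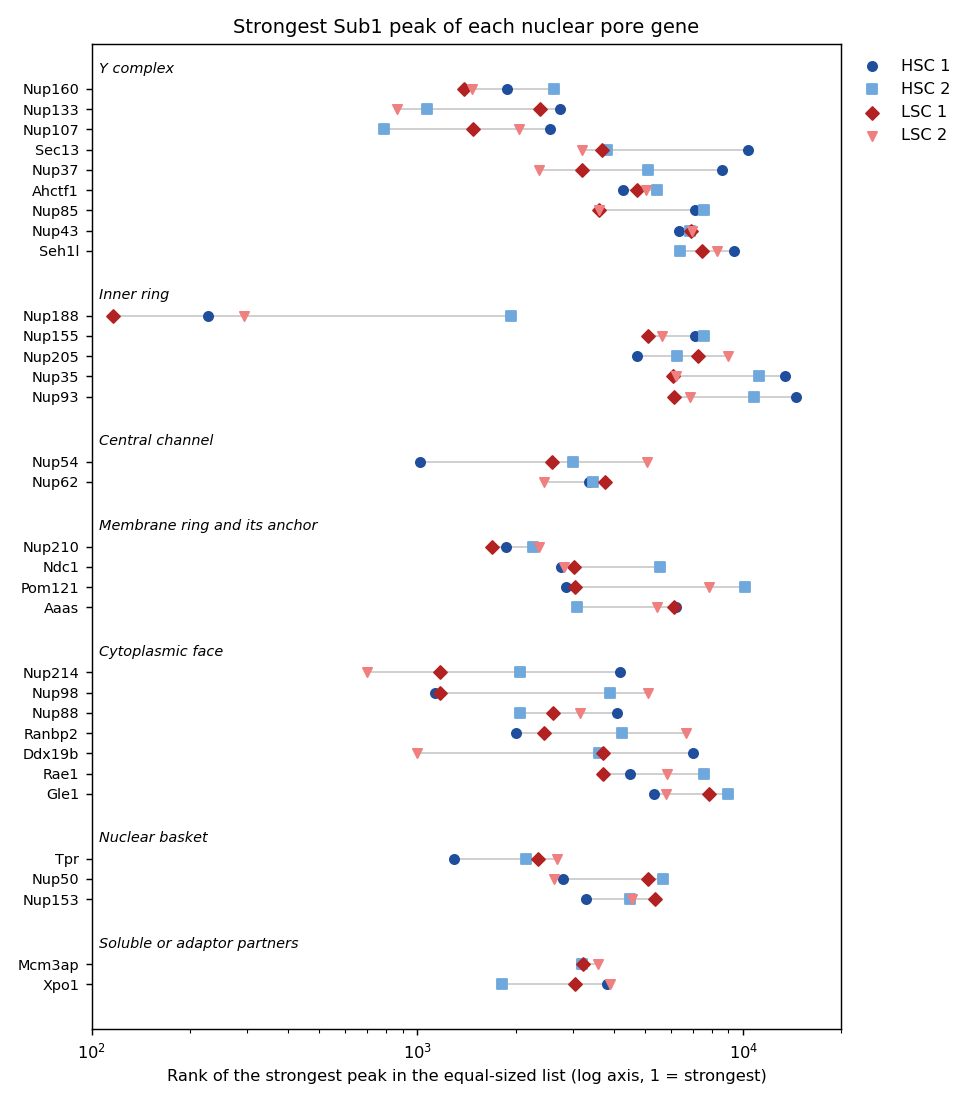
Rank of the strongest Sub1 peak of each of the 32 genes in lists of 34185 peaks per library (log axis, 1 is the strongest), grouped by pore subcomplex, with 1 symbol per library. Nup188 holds the highest rank in every library but HSC 2, where Nup107 does, and Nup35, Nup93, Nup85, Nup37 and Nup214 lie higher in both LSC libraries than in both HSC libraries.

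Summits of start peaks lay just inside the genes. Over the 28 genes with a start site in the table, the median summit lay 208 (HSC 1), 170 (HSC 2), 162 (LSC 1) and 216 (LSC 2) bases downstream of the start. The medians over all genes were 166, 192, 176 and 208. In the same order, 22, 20, 25 and 23 of the 28 summits were downstream, and 23, 18, 24 and 20 lay within 500 bases. Over all genes, 68.2%, 63.7%, 73.4% and 72.5% of summits were downstream and 67.9%, 56.3%, 76.6% and 69% within 500 bases. Start peaks of the members had median widths of 2031 and 2716 bases in HSCs and 2724 and 3464 bases in LSCs, against 1816, 1880, 2467 and 2857 for all genes.

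**Figure D2:**
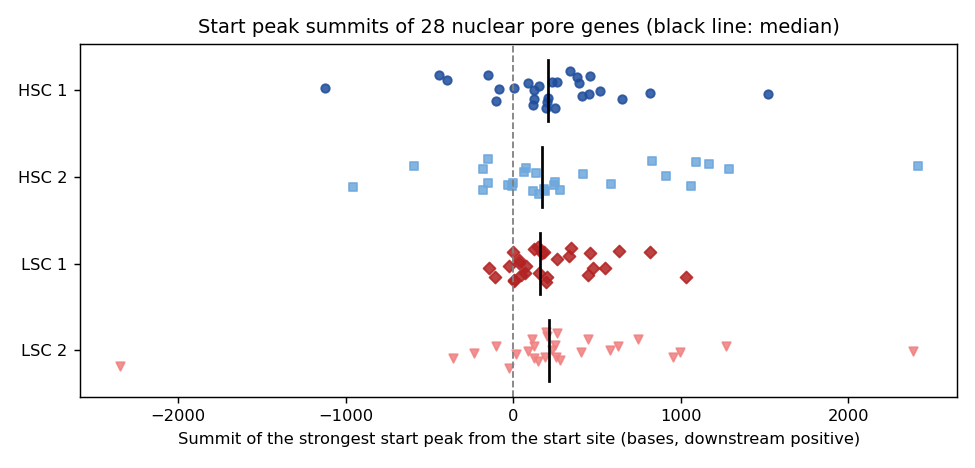
Distance of the summit of the strongest start peak from the nearest annotated start site, in bases, for 28 genes in each deposited list, with downstream distances positive and a black line at the median. Medians lie between 162 and 216 bases downstream in all 4 libraries, and a few genes lie over 1000 bases away.

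Among the departures from this pattern were Nup160 and Nup62 in all 4 libraries, and Xpo1 and Ddx19b in some. Nup210 summits also lay past 500 bases in every library, at 647, 583, 547 and 577 bases downstream. Those of Ahctf1 lay over 1 kb downstream in HSC 2 (1167) and LSC 1 (1031). In HSC 2 the same held for Rae1 (1094) and Nup153 (1063). At Nup160, a Y complex scaffold protein, the strongest peak lay inside the gene, with its summit 2239 (HSC 1), 2414 (HSC 2), 2260 (LSC 1) and 2388 (LSC 2) bases downstream of the start. Separate peaks nearer the start were weak, with folds of 8.35 in HSC 1 and 7.94 in LSC 1 against 45.7 and 197 for the strongest. In HSC 2 and LSC 2 the broad peak itself began within 1 kb of the start. Nup62, a central channel protein, had summits 818, 830, 815 and 996 bases downstream, under the broad peaks of 6634, 6281, 5906 and 5994 bases that cover its start in the 4 lists. The start of Il4i1b lies 282 bases downstream of that of Nup62 on the same strand, so these peaks cannot be given to 1 of these genes. Xpo1, the main exporter of proteins with a nuclear export signal, had summits 1523, 1291 and 1269 bases downstream in HSC 1, HSC 2 and LSC 2 and 331 bases in LSC 1. At Ddx19b, a helicase that strips proteins from exported mRNA, the LSC 2 peak was 11169 bases wide. Ddx19b has more than 1 annotated start. The LSC 2 summit lay at -2349 bases (negative is upstream) from the outer start, at 111031751 on chromosome 8. Measured from the same start, the summits of HSC 1, HSC 2 and LSC 1 lay 3895, 4097 and 4017 bases downstream, which is -86, 116 and 36 bases from the inner start at 111027770. The wide LSC 2 peak covers both starts.

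The promoters of 4 members are shown because they carry the contrasts described here. Nup214 is the floxed gene, and Nup188 has the highest rank of all members in 3 of the 4 libraries. Nup37 ranked higher in both LSC libraries, and Nup160 has its strongest peak away from the annotated start. The sequences are from RefSeq (GRCm38.p6, plus strand, 5′ to 3′) and end at the base before the gene. They are chr2:31974200-31974407, chr2:30286166-30286406, chr10:88146742-88146975 and chr2:90676965-90677214, in the order printed. Capitals mark the fixed letters found in them on either strand, which are CCAAT (NFY) and TGCGCA (core of the NRF1 motif) in Nup214, AAGATGG (core of the YY1 motif) and CACGTG (E-box) in Nup188, CCGGAAG (ETS) in Nup37 and TATAAA, the letters of the TATA box, in Nup160.
Nup214: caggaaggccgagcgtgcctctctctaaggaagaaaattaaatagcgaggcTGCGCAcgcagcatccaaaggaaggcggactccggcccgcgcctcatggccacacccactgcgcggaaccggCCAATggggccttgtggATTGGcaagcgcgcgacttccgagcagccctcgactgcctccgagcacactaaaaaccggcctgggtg
Nup188: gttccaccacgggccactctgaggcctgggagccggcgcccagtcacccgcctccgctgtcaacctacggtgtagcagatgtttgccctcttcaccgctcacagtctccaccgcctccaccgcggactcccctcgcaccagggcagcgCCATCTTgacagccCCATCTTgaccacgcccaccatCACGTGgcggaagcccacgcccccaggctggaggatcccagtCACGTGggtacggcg
Nup37: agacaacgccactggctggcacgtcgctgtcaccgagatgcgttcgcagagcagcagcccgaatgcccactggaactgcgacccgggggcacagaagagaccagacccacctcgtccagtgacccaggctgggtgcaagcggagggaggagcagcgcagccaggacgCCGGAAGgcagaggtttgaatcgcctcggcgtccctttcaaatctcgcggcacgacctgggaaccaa
Nup160: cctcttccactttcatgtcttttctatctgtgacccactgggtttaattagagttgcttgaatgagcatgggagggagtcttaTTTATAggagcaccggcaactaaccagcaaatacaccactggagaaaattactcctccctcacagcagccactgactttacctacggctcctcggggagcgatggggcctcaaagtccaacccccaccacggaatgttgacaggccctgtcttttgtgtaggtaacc

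The member promoters were rich in G and C. The table holds 32 windows of 300 bases (250 before and 50 after a start) for the 28 members it covers, with a median of 63.8% G and C and 27 CpG dinucleotides. The medians of 21263 windows of protein-coding genes were 56.3% and 13. The Nup160 window has 50.7% and 6. CCGGAAG was found in 10 of the 32 windows (31.2%, against 11.6% of all windows), from 9 genes (Aaas, Gle1, Mcm3ap, Nup107, Nup155, Nup37, Nup54, Rae1 and Sec13). GGGCGG (SP) was found in 20 (62.5% against 46.2%) and TGCGCA in 5 (15.6% against 9.74%). AAGATGG was in 4 (12.5% against 6.24%), TGACGTC (CRE) in 3, among them Nup214 (9.38% against 3.84%), and CACGTG in 4 (12.5% against 7.84%). Shares were near those of all windows for CCAAT, in 13 (40.6% against 38.2%), and TATAAA, in 3 (9.38% against 12.6%). Both strands were searched, windows of 1 gene can overlap, and a match is a description of letters, not of a bound site.

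Start peaks of several members lie at or near the start of another gene. In the promoter table, 9 of the 28 members have another gene's start within 1 kb, and for 5 it is a protein-coding gene on the opposite strand. The same shares over all genes were not computed, so these counts are no result particular to pore genes. These pairs are Nup188 with Dolk (62 bases), Nup98 with Pgap2 (7 bases), Nup88 with Rpain (226 bases), Nup37 with Parpbp (51 bases) and Tpr with Odr4 (217 bases). Peaks carry no strand, so Sub1 at these shared starts cannot be divided between the genes.

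Nup214 encodes the nucleoporin that holds export complexes at the cytoplasmic face. It lies on chr2:31974408-32053975 and had its strongest peak at the start in every list. The start peak ran from 31974055 to 31975397 in HSC 1, from 31972753 to 31975718 in HSC 2, from 31973368 to 31975723 in LSC 1 and from 31973318 to 31975791 in LSC 2. Its summit lay 197, 185, 197 and 200 bases downstream of the annotated start site, so the 4 libraries placed it within a few bases of each other. Within each list its fold was 33.2, 60.3, 207 and 173, beside medians of 34, 43.7, 143 and 93 for the strongest peaks of the 32 genes. It was thus near the members' median in HSC 1 and above it in the other lists. At equal list size the Nup214 peak ranked 4174 and 2068 in HSCs and 1173 and 698 in LSCs. The groups did not overlap, and the nearest ranks were 1.76-fold apart, less than the difference between the HSC libraries.

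Inside Nup214, HSC 1 had 4 further peaks, HSC 2 had 12, LSC 1 had 1 and LSC 2 had 0. All interior peaks of the HSC lists were weak, with ranks beyond 34185, and none of them remained at equal list size. The single LSC 1 peak, from 32037395 to 32037764 with a fold of 7.03, overlapped one of HSC 1 with a fold of 4.67. Peaks covered 3.93%, 10.2%, 3.29% and 2.92% of the Nup214 window in HSC 1, HSC 2, LSC 1 and LSC 2.

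**Figure D3:**
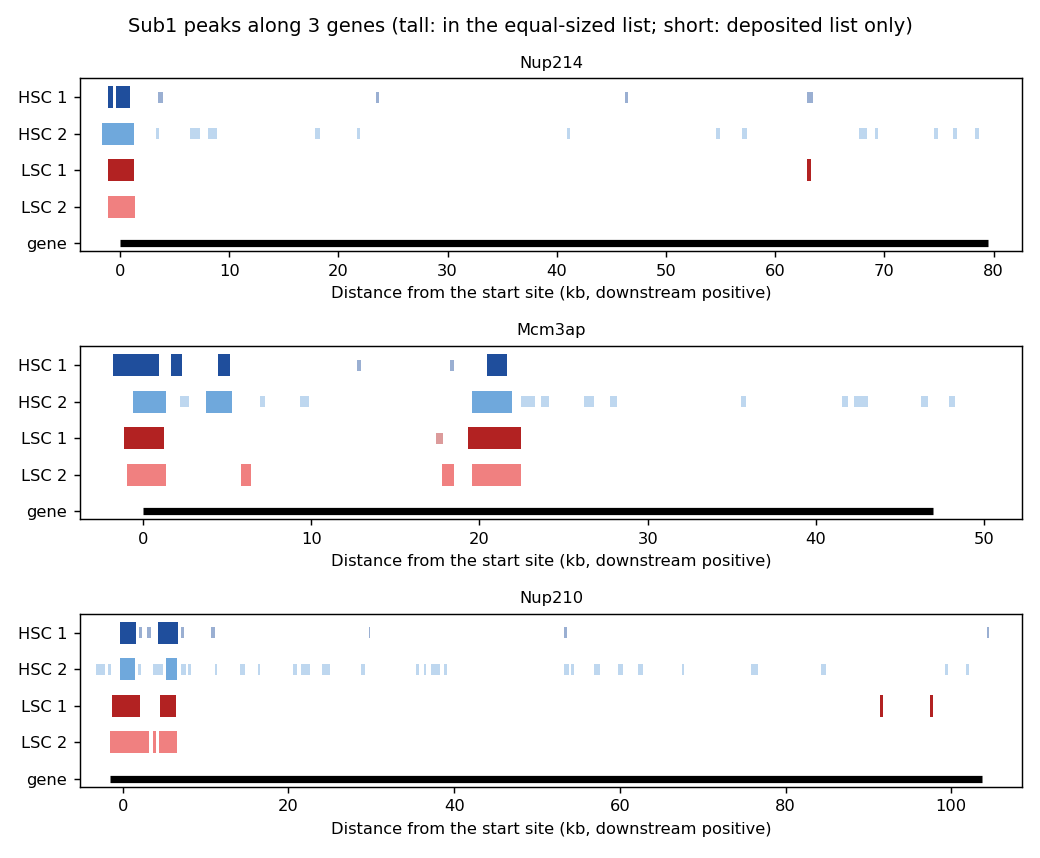
Sub1 peaks along Nup214, Mcm3ap and Nup210 in the 4 libraries, by distance from the annotated start site in kb (downstream positive). Tall bars are peaks in the lists of equal size, short pale bars are peaks of the deposited lists alone, and black lines are the genes: start peaks recur in every library, and most interior peaks are short bars of HSC 2.

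Other proteins of the cytoplasmic face showed no such order of groups. Of the 7 genes, Nup214 alone ranked higher in both LSC libraries (30.8% of all genes). None ranked higher in both HSC libraries (17.9% of all genes). Nup88, which binds Nup214, ranked 4101 and 2062 in HSCs and 2610 and 3158 in LSCs. Ranbp2, the largest filament protein, ranked 2012 and 4242 in HSCs and 2446 and 6691 in LSCs. For Nup98, the ranks 1132 and 3912 in HSCs and 1176 and 5114 in LSCs fell into a pair of library 1 values and a pair of library 2 values. Gle1, an activator of Ddx19b in mRNA export, was the lowest of the face by its weakest library, at 5319, 9001, 7877 and 5792 in HSC 1, HSC 2, LSC 1 and LSC 2. Rae1, an mRNA export factor bound to Nup98, ranked 4495 and 7599 in HSCs and 3724 and 5826 in LSCs. In HSC 2 the strongest Rae1 peak was an interior one, while its start peak ranked 15635. Ddx19b ranked 7006 and 3605 in HSCs and 3708 and 997 in LSCs. The rank of 997 belongs to the peak of 11169 bases, the only Ddx19b peak in LSC 2. Its summit lay outside the gene's window, so this rank may not describe Ddx19b.

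The inner ring held both the highest and the lowest rank of any member. Nup188, a large inner ring scaffold, ranked 227 and 1936 in HSCs and 116 and 294 in LSCs, with summits at 5, -179, 3 and -233 bases from its start. Its HSC 1 rank fell between the LSC ranks, so the groups overlapped. Nup93, which holds the inner ring together, ranked 14475 and 10766 in HSCs and 6130 and 6843 in LSCs, without overlap. Its strongest HSC 1 peak was 285 bases wide with its summit at -1121 bases from the start, against widths of 1997, 3173 and 2077 bases in HSC 2, LSC 1 and LSC 2. A neighbouring HSC 1 peak of the same fold, 13.8, and the next rank, 14476, had its summit at 103 bases, near those of the other libraries at 155, 73 and 262 bases. Nup35, which binds membrane, ranked 13439 and 11206 in HSCs and 6097 and 6207 in LSCs, also without overlap. It was the only member with no interior peak in any list. Nup155 ranked 7133 and 7560 in HSCs and 5103 and 5632 in LSCs, whereas Nup205 ranked 4718 and 6242 in HSCs and 7242 and 8987 in LSCs. Thus 3 of 5 inner ring genes ranked higher in both LSC libraries and 1 in both HSC libraries (30.8% and 17.9% of all genes).

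In the Y complex, 4 of 9 genes ranked higher in both LSC libraries and 1 in both HSC libraries (30.8% and 17.9% of all genes). Nup85 ranked 7121 and 7588 in HSCs and 3605 and 3614 in LSCs, which at 1.97-fold was the widest gap among the 32 genes. For Nup37 the ranks were 8635 and 5118 in HSCs and 3203 and 2357 in LSCs. The ranks of Nup160 were 1885 and 2628 against 1389 and 1473. Those of Sec13, which the Y complex shares with vesicle coats, were 10320 and 3826 against 3681 and 3190, with nearest values 1.04-fold apart. Nup43 ranked 6367 and 6881 in HSCs and 6928 and 6947 in LSCs, a gap of 1.01-fold. Nup107 and Nup133, a pair at the stem of the Y, were strong in every library, at 2557, 787, 1476 and 2054 and at 2729, 1067, 2371 and 863 in HSC 1, HSC 2, LSC 1 and LSC 2. Ahctf1 (Elys), which brings the Y complex to chromatin, ranked 4260, 5454, 4716 and 5043 in the same order, and Seh1l, shared with a complex of nutrient sensing, 9397, 6416, 7492 and 8283.

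Of the 3 nuclear basket genes, 2 ranked higher in both HSC libraries (17.9% of all genes), each by a narrow gap. Tpr, the main basket filament, ranked 1296 and 2153 in HSCs and 2338 and 2676 in LSCs, with nearest values 1.09-fold apart. Nup153, which anchors the basket, ranked 3291 and 4482 in HSCs and 5356 and 4542 in LSCs, with nearest values 1.01-fold apart. Nup50 overlapped, at 2788 and 5659 against 5084 and 2632. In the central channel, Nup54 ranked 1015 and 3011 in HSCs and 2595 and 5068 in LSCs. Nup62 ranked 3366 and 3466 in HSCs and 3775 and 2453 in LSCs, so neither of its genes separated the groups.

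No membrane ring gene separated the groups either. Nup210 ranked 1866, 2256, 1695 and 2354 in HSC 1, HSC 2, LSC 1 and LSC 2, a narrow range. Ndc1, which anchors the ring, ranked 2763, 5564, 3017 and 2821. Its partner Aaas (Aladin) ranked 6235, 3079, 6139 and 5420. Pom121 was uneven within each group, at 2863 and 10106 in HSCs and 3037 and 7868 in LSCs. Among the adaptor partners, Xpo1 overlapped at 3828 and 1822 in HSCs against 3055 and 3899 in LSCs. Mcm3ap (Ganp), which docks mRNA export factors at the pore, ranked 3175 and 3203 in HSCs and 3226 and 3582 in LSCs.

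Across the 32 genes, 8 ranked higher in both LSC libraries (25% of members) and 5 in both HSC libraries (15.6%). Over the 10788 protein-coding genes with a peak in all 4 lists, 30.8% ranked higher in both LSC libraries and 17.9% in both HSC libraries. The shares of members were thus close to, and slightly below, the shares of all genes in both directions, and are no result particular to pore genes. For a single gene, 2 libraries against 2 allow no exact permutation p below 0.33.

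The deposited HSC lists held several times more peaks in these genes than the LSC lists, most of them inside the gene bodies. The 32 windows held 202 (HSC 1), 335 (HSC 2), 71 (LSC 1) and 65 (LSC 2) peaks. Means were 268 ± 94 (SD, n = 2) and 68 ± 4.24 (SD, n = 2), a 3.83-fold ratio of geometric means (two-sided exact permutation test, p = 0.33, the smallest value possible). The ratio over all protein-coding genes was 3.5-fold, close to that of the members. Interior peaks, which lie over 1 kb from the start and from both gene ends, numbered 141, 267, 35 and 27 (6.31-fold, exact permutation p = 0.33), against 5.61-fold for all genes. Start peaks numbered 43, 42, 34 and 34. They made up 21.3% and 12.5% of the members' peaks in HSCs and 47.9% and 52.3% in LSCs, beside 21.5%, 14.2%, 40.6% and 46% for all genes. Peaks covered 10.5%, 18.3%, 7.4% and 8.51% of the windows' length, above the values for all genes, at 5.56%, 9.66%, 3.89% and 4.2%.

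At equal list size most of the difference was gone, and a small part of it remained in peak number. The windows then held 83 and 78 peaks in HSCs and 62 and 65 in LSCs, which is 1.27-fold (log2 difference 0.34, exact permutation p = 0.33), while the number over all genes was the same to within 0.999-fold. HSC and LSC values did not overlap. Interior peaks numbered 39, 35, 27 and 27 (1.37-fold, exact permutation p = 0.33, against 1.02-fold for all genes), and start peaks 39, 39, 34 and 34. Start peaks then made up 47%, 50%, 54.8% and 52.3% of the members' peaks, so the contrast in this share was mostly gone. Covered share did not separate the groups, at 7.38% and 8.4% in HSCs and 7.16% and 8.51% in LSCs (exact permutation p = 1.00). HSC lists thus had more peaks over a similar length of these genes.

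**Figure D4:**
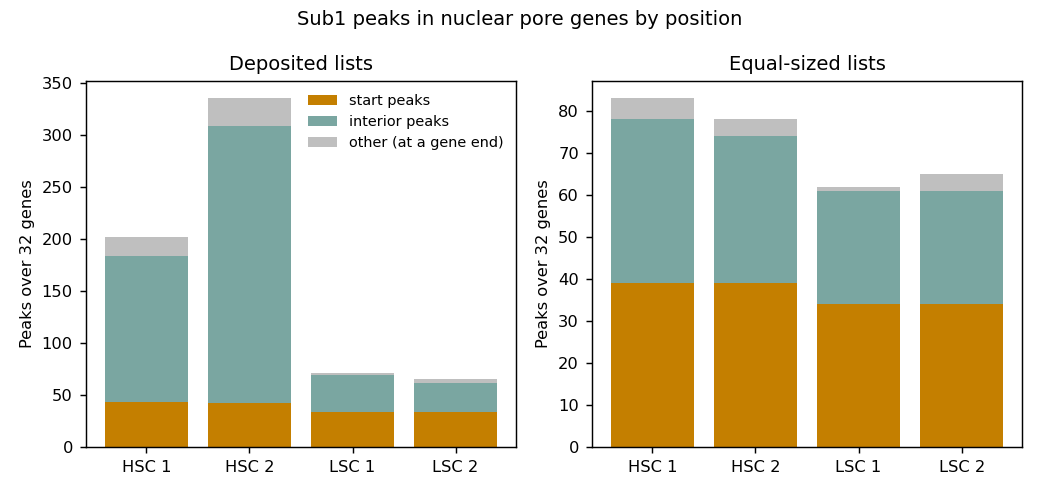
Number of Sub1 peaks over the windows of the 32 genes in each library, split into start peaks, interior peaks and other peaks at a gene end, in the deposited lists (left) and in lists of 34185 peaks (right). Start peaks number 34 to 43 in the deposited lists, while interior peaks range from 27 to 267 there and from 27 to 39 at equal list size.

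By subcomplex, every part of the pore had a higher peak density in both HSC lists than in both LSC lists as deposited. The ratio ran from 1.64-fold for the central channel to 5.02-fold for the nuclear basket (exact permutation p = 0.33 for each, adjusted p = 0.33 over 7 subcomplexes). Over all protein-coding genes the ratio was 3.5-fold. Their densities were 0.75 and 1.3 peaks per 10 kb in HSCs and 0.305 and 0.262 in LSCs, also without overlap. The adaptor partners' log2 difference of 1.29 became 0.47 without HSC 2 and 2.11 without HSC 1, and the central channel's 0.71 became 0.29 without LSC 1 and 1.14 without LSC 2. At equal list size the densities over all genes were 0.265 and 0.259 per 10 kb in HSCs and 0.263 and 0.262 in LSCs. The nuclear basket then held 7 and 8 peaks in HSCs and 4 and 4 in LSCs, or 0.536 and 0.612 against 0.306 and 0.306 per 10 kb. The cytoplasmic face held 23 and 22 against 16 and 10, and the Y complex 17 and 21 against 14 and 16. These 3 groups did not overlap (exact permutation p = 0.33, adjusted p = 0.78). In contrast, the inner ring held 12 and 9 against 8 and 9, the membrane ring 13 and 10 against 10 and 11 and the adaptor partners 7 and 5 against 6 and 6. The central channel turned direction, with 4 and 3 peaks in HSCs and 4 and 9 in LSCs. This rests on Nup62, which had 8 peaks in LSC 2 and 2 in each other list. Differences between subcomplexes were not tested.

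**Figure D5:**
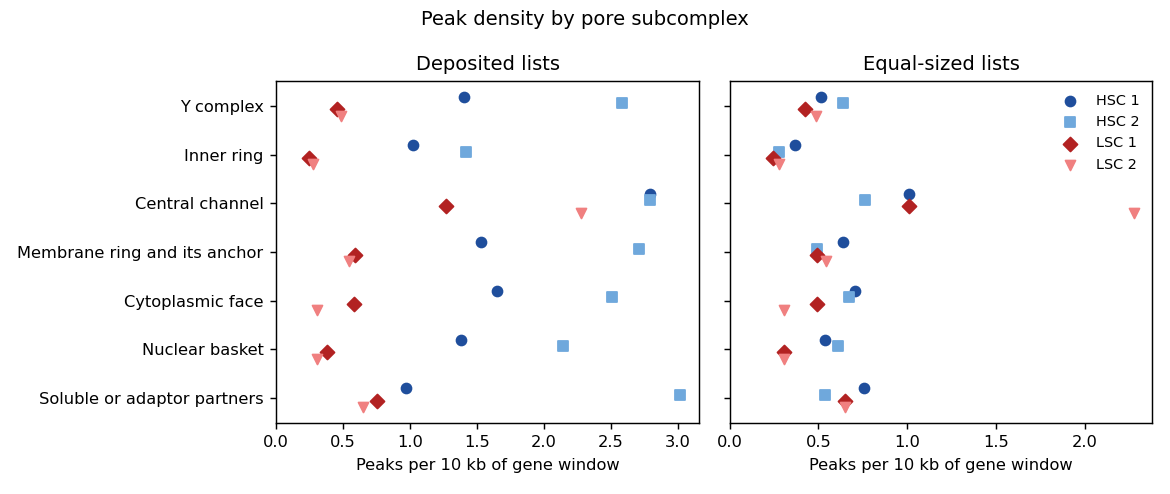
Sub1 peaks per 10 kb of gene window in each pore subcomplex, with 1 symbol per library, in the deposited lists (left) and in lists of equal size (right). Both HSC values exceed both LSC values in all 7 subcomplexes on the left and in the Y complex, cytoplasmic face and nuclear basket on the right. Values over all protein-coding genes, which are not drawn, separate likewise in the deposited lists and overlap in lists of equal size.

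Every gene had a region at a gene end that recurred in all libraries, and interior regions mostly did not recur. Peaks of the 4 deposited lists that overlapped by at least 1 base merged into 70 regions at gene ends and 327 interior regions. Each of the 32 genes had a gene-end region found in all 4 libraries. Of the 70 gene-end regions, 27 were in 1 library, 19 of them in HSC 2. Only 7 interior regions were in all 4, whereas 273 were in 1 library, 201 of them in HSC 2. Both HSC lists and neither LSC list held 28 interior regions, and none was held by both LSC lists alone. Over all genes the deposited HSC lists also held more interior peaks, by 5.61-fold. Regions of all genes were not merged, so the region counts here are no result particular to pore genes. At equal list size, 72 interior regions remained, of which 56 were in 1 library, 3 in both HSC lists alone, none in both LSC lists alone and 4 in all 4.

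Those 4 regions lay in Mcm3ap, Nup210, Aaas and Nup98. The region in Mcm3ap, on chr10:76488239-76491372, had its summit 21215 (HSC 1), 21853 (HSC 2) and 21219 (both LSC libraries) bases downstream of the start. Its rank was 9492 and 15986 in HSCs and 3758 and 4264 in LSCs. In LSCs it came close to the Mcm3ap start peak, which ranked 3226 and 3582, while in HSCs it lay far below, at 3175 and 3203 for the start. No other gene is annotated over it. This contrast was singled out after the values were seen. The Nup210 region, on chr6:91110171-91112575, lay 6255, 6160, 6040 and 5983 bases downstream of the start and ranked 13537, 6273, 9184 and 9147 in HSC 1, HSC 2, LSC 1 and LSC 2. Nup210 also had the most interior peaks summed over the 4 deposited lists, with 7, 26, 3 and 2, owing to HSC 2. In HSC 1 several members had more than Nup210, led by Nup188 with 11, and in LSC 2 likewise, led by Nup62 with 5. The Aaas region ranked 8931 and 26200 in HSCs and 33950 and 17425 in LSCs. The Nup98 region, 3108 to 4323 bases downstream, was weak in every library, at ranks from 20760 to 32093.

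Other genes of nuclear transport were also occupied in both cell types. Of 37 listed importins, exportins, mRNA export factors, genes of the Ran and SUMO systems and further nucleoporins, 35 were in the annotation under their listed symbols. All 35 had a peak in every list, and 35, 35, 33 and 34 had a start peak in HSC 1, HSC 2, LSC 1 and LSC 2. Xpo4 had no start peak in either LSC list, with its strongest peak elsewhere in the window at ranks 720 and 1201, against 920 and 1684 in HSCs. Median ranks of the 35 genes at equal list size were 2665, 4602, 3999 and 3228. Of the 35, 10 ranked higher in both LSC libraries (28.6%, against 30.8% of all genes) and 1, the nucleoporin gene Nup210l, in both HSC libraries (2.86%, against 17.9%). Nup210l ranked 4422 and 1664 in HSCs and 4424 and 4533 in LSCs, so its nearest values all but met. Ran, the GTPase that drives transport, ranked 5837 and 5194 in HSCs and 5088 and 4238 in LSCs. Xpo5, which exports microRNA precursors, ranked 683 and 1071 in HSCs and 221 and 239 in LSCs, and the importin gene Ipo7 1782 and 830 against 160 and 571.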

How the data were processed

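Per the labels' protocols, CUT&Tag libraries were made with a high-sensitivity kit and an antibody against Sub1, with 17 to 20 PCR cycles. Per the submitters' processing notes, the authors used FastQC 0.11.5, Bowtie2 2.2.9, MACS2 and ChIPseeker with mm10. Caller settings, duplicate handling and any control are not given in the sources used here. Each deposited list belongs to 1 library and gives per peak a fold ratio over background, -log10 p, -log10 q, and a score, 10 times -log10 q rounded down in at least 99.1% of peaks. The lowest deposited -log10 q was 5.21 to 5.41. Peak width and number change with depth, which is unknown, so list length was equalised at 34185. The fold was used to describe or order peaks within a list.

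Overlap was at least 1 base. Start sites came from the promoter table for 17492 of 21887 genes, and both gene ends served for the others. Group values were compared by a two-sided exact permutation test over 6 assignments. The members and gene lists were chosen with earlier results of these data known. By the rule for named genes, values are given for Nup214, the highest and lowest member of each subcomplex by its weakest library, members with the widest rank gaps, members without a start peak, and those with most and fewest interior peaks; members named beyond it were added to cover each subcomplex. Alternatives were equal-sized or halved lists, a -log10 q of at least 10, summits in place of peaks, windows of 3 kb or no extension, order by fold, leaving out each library and a replicate block. Some listed marker genes are not reported here. Counting was tested on simulated data, with 100% of 240 genes right. Python 3.11.15, NumPy 2.4.6, pandas 2.3.3 and matplotlib 3.10.9 were used.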

Additional observations from a re-analysis of the deposited data

How the results depend on the processing

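Of 167 values under an alternative, 157 kept their direction and stayed within the limits set, 4 reversed and 6 counts moved by over 1.5 times. Peak density reversed at equal list size, by -log10 p or by fold, which order the peaks of these genes alike, in the central channel (log2 difference -0.79, against 0.71 as deposited) and the adaptor partners (-0.02, against 1.29). Without Nup62, an alternative chosen after the data were seen, the log2 difference of all member peaks was 2.01 as deposited and 0.42 at equal size. All 32 genes kept a peak in every list under the alternatives run, except with summits in place of peaks. Then 31 had one, Ddx19b lacking it in LSC 2, and 27 had a start peak. Without each library in turn, the log2 difference of member peaks was 1.57 to 2.3, that of interior peaks 2.2 to 3.12 and that of covered share 2.51 (without HSC 2) to 10.4 percentage points (without HSC 1). Members ranking higher in both HSC libraries then numbered 6 to 12 (10 without HSC 1, 12 without HSC 2 and 10 without LSC 1), and in both LSC libraries 11 to 15 (15 without HSC 1, 14 without HSC 2), since 3 libraries part more easily than 4. Over the 10788 genes the shares then rose likewise, to between 24.1% and 33.4% (HSC) and between 41.9% and 48.2% (LSC). Subcomplex log2 differences stayed above 0 without each library, from 0.29 to 2.73. The 8 LSC genes, Nup214 among them, were kept under the 6 alternatives of list, threshold, summit, window and order, and 4 of the 5 HSC genes were, Nup43 being lost with 3 kb windows. Halved lists (17092 peaks) and the threshold (lists of 29871 peaks) could not change these calls, since no member's strongest peak ranked beyond 14475. Their values are among the 157. Order by fold, alike for these genes, added nothing, which leaves summits and changed windows as the alternatives that put the calls to a test. With the strongest start peak ranked, also chosen after the data were seen, the counts were 5 and 7.

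Replicate numbers are not said to mark shared mice or days. With the replicate number as a block, the log2 difference of member peaks was 1.94 (exact sign-flip p = 0.50, the smallest that 2 pairs allow), and 8 and 12 members ranked higher in HSCs and in LSCs in both pairs (25% and 37.5%, against 24.6% and 41.4% of all genes). Over 10788 genes, rank differences between libraries 1 and 2 correlated at 0.28 between the cell types. Depth is unknown, so a missing weak peak, mostly inside genes, does not show that Sub1 was absent there.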
